A study of Mus musculus with 9 samples.

Results

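The 79 genes described here encode receptors for neuromodulators and the metabotropic receptors for glutamate and GABA. They were chosen by gene symbol alone from the 23319 genes of the count tables, and they fall into 13 families: serotonin, muscarinic, nicotinic, adrenergic, dopamine, metabotropic glutamate, GABA-B, somatostatin, neuropeptide Y, opioid and nociceptin, VIP and PACAP, tachykinin and corticotropin releasing hormone receptors. Expression was counted by RNA-seq in 9 libraries of cortical interneurons from mice at postnatal day 5, 3 libraries from each of 3 driver lines that all carried the fluorescent reporter Ai47. For the Nkx2.1 libraries the mice were Nkx2.1-CreER;Ai47 and tamoxifen was given at embryonic day 17, which is a known way of labelling chandelier cells, and the SOM and VIP libraries came from SOM-Cre;Ai47 and VIP-Cre;Ai47 mice, for which the labels give no treatment. Each library was made from 150 green fluorescent cells picked by hand after layer 2/3 had been cut from the medial prefrontal cortex and the anterior cingulate cortex and dissociated. A driver marks cells by the activity of 1 gene, at the time of tamoxifen for Nkx2.1-CreER and at any time before picking for the other lines, so each group can hold more than 1 kind of cell. Only the Nkx2.1 mice carried an inducible Cre and received tamoxifen, so line and treatment cannot be told apart. The labels do not state that the libraries of a line came from different animals, so the spread that p-values are set against is that between these libraries and may be technical.

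Most of these receptors are membrane proteins that pass the signal of a bound modulator to G proteins inside the cell. Receptors that couple to Gq activate phospholipase C and release calcium, receptors that couple to Gs raise cyclic AMP, and receptors that couple to Gi or Go lower cyclic AMP and open inwardly rectifying potassium channels. The nicotinic receptors and the serotonin receptor subunits Htr3a and Htr3b are exceptions, since they form ion channels that open on binding acetylcholine or serotonin. In the cortex, interneuron classes are known for the modulators they answer to, and several of the peptide ligands are made by the interneurons themselves.

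Between 6484488 and 12465997 reads of a library fell in genes, and the receptor genes took 0.147% to 0.303% of them. The floor used for detection was 3 reads in a library, which came to 0.246 to 0.444 CPM. Here CPM is the count per 1000000 reads in genes, with TMM normalization, and a gene at 0 has no read. The labels of the groups were checked against marker lists. The summed level of 7 SOM interneuron genes was 8655 to 13255 CPM in SOM, 398 to 1539 in Nkx2.1 and 97.9 to 574 in VIP libraries, and that of the VIP or caudal ganglionic eminence genes was 2657 to 3200 CPM in the VIP libraries and at most 319.8 elsewhere. These lists include the driver genes Sst and Vip, whose levels follow from the labelling and are no check. Npy alone gave 3555 to 7146 CPM of the SOM sums. Sst, Npy, Reln, Chodl and Nos1 had their highest group mean in SOM. The mean of Elfn1 was higher in VIP (308 CPM, against 235 in SOM) and that of Calb1 in Nkx2.1 (379, against 248 in SOM). Summed astrocyte markers, of which 8 of 8 passed the floor in at least 1 library, stood at 3563, 663 and 253 CPM across the Nkx2.1 replicates, 121, 211 and 63.9 across the SOM replicates and 409, 412 and 262 across the VIP replicates. The level in Nkx2.1 replicate 1 was the highest of the 9. Most of each VIP sum was Slc1a2, at 372, 215 and 229 CPM, and Aqp4, Aldh1l1 and Gfap were at most 0.246 CPM there. In Nkx2.1 replicate 2, Fabp7, Slc1a3 and Gfap stood at 326, 293 and 43.0 CPM, while Aqp4, Aldh1l1 and Aldoc had no read. Gfap was at 29.4 CPM in Nkx2.1 replicate 1 and had no read in Nkx2.1 replicate 3. Oligodendrocyte lineage markers summed to 259 to 302 CPM in the Nkx2.1, 99.97 to 264 in the SOM and 1.72 to 111 in the VIP libraries. The Nkx2.1 sums rested on few genes. In replicate 2 nearly all was Pdgfra, at 258 CPM, and Olig2 had no read in any Nkx2.1 library. Excitatory neuron markers summed to at most 156 and microglial and endothelial markers to at most 17.8 CPM in any library. GABAergic neuron genes summed to 3109 to 6971 CPM over all 9 libraries, and those of interneurons from the medial ganglionic eminence to 1191 to 2614 in Nkx2.1, 1842 to 2515 in SOM and 255 to 725 in VIP libraries.

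Of the 79 receptor genes, 51 had at least 1 read and 28 (35.4%) had none, against 38.6% without a read among all genes. Detected receptor genes were most numerous in SOM libraries: 25, 29 and 30 genes with more than 3 reads (mean 28.0 ± 2.65, SD, n = 3). The Nkx2.1 libraries held 25, 17 and 18 (20 ± 4.36) and the VIP libraries 19, 24 and 22 (21.7 ± 2.52). At this floor SOM and VIP counts did not overlap, while Nkx2.1 replicate 1 equalled the lowest SOM library. At 1 read or more SOM and VIP did overlap, with 30, 30 and 35 genes in SOM and 22, 31 and 28 in VIP. The order was not that of sequencing depth, since the shallowest library was SOM replicate 2, and with all libraries thinned to its 6484488 reads the expected numbers were 27.1 ± 2.63 for SOM, 18.3 ± 3.53 for Nkx2.1 and 21.4 ± 2.81 for VIP. Genes of any kind were counted per library only at 1 read or more, not at more than 3. They numbered 10923 to 11490 in the SOM, 8180 to 10576 in the Nkx2.1 and 9672 to 10927 in the VIP libraries. For all genes at 1 read, the SOM libraries thus lay above the Nkx2.1 libraries too and overlapped the VIP range at its upper end. These are pools of cells, so fewer cells of a type and less RNA per cell cannot be told apart.

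Detection of a receptor was often limited to a single library. Among the 79, 15 (19.0%) passed the floor in exactly 1 library, against 6.02% of all genes, and 9 (11.4%) passed it in all 9, against 20.2% of all genes. Among the 9 were the glutamate receptors Grm3, Grm5 and Grm8, both GABA-B subunits Gabbr1 and Gabbr2, the muscarinic receptor Chrm3, the adrenergic receptor Adra1a and the nicotinic subunit Chrnb2. The gap was smaller among genes kept by the filter on low counts that preceded testing. Of these, 36% of receptor genes and 43.9% of all genes passed the floor in all 9 libraries. Over the 51 genes with reads, a median of 60.2% of a gene's reads came from its top library, and for 34 of them 1 library supplied the majority. Receptors read this way included Htr1f, with 682 reads in Nkx2.1 replicate 1 and 3 in SOM replicate 3, Chrna6 with 208 reads in SOM replicate 3, Npy5r with 130 reads in VIP replicate 3 and Htr6 with 100 reads in VIP replicate 2; these 4 were chosen after their values were seen. Such values describe 1 pool of 150 cells and no group. The share of reads from the top library was not computed over all genes, so it is not read as a trait of receptor genes.

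**Figure D1:**
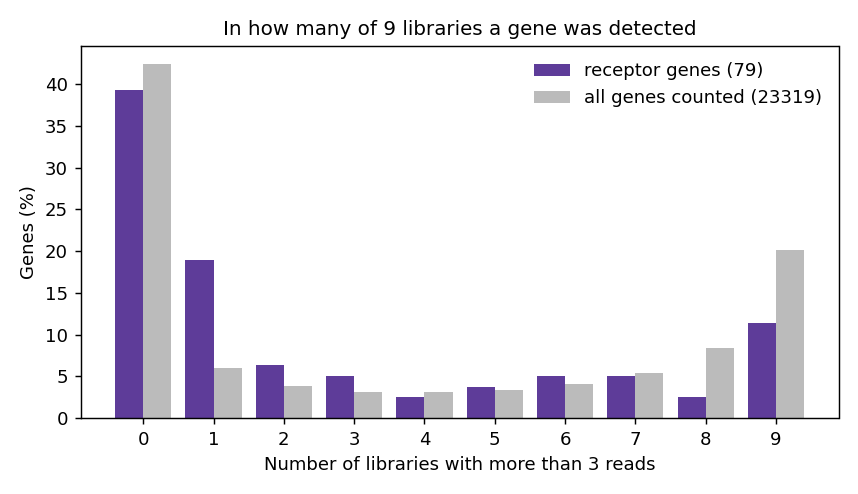
Percent of genes (vertical axis) by the number of libraries in which they had more than 3 reads (horizontal axis), for the 79 receptor genes (purple bars) and all 23319 counted genes (grey bars). The receptor genes stand above all genes at 1 library (19.0% against 6.02%) and below them at 9 libraries (11.4% against 20.2%).

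After the filter on low counts, 25 receptor genes remained among the 10728 tested, and edgeR, the main test, called none of them at the adjusted threshold in any comparison. Between Nkx2.1 and SOM, edgeR called 0 of the 25 at an adjusted p under 0.05 (background 0.0932% of all tested genes), 8 at an unadjusted p under 0.05 (11.3%), and DESeq2 called 6 (7.16%), namely Adra1b, Chrm3, Chrna7, Grm7, Htr1a and Tacr1. Between Nkx2.1 and VIP, edgeR called 0 (background 0.308%), 6 at the unadjusted p (15.2%), and DESeq2 called 6 (11.8%), namely Adra1b, Chrm3, Chrna7, Grm3, Grm5 and Grm7. Between SOM and VIP, edgeR called 0 (background 0.0746%), 8 at the unadjusted p (6.99%), and DESeq2 called 5 (3.56%), namely Adra1b, Grm3, Grm8, Htr1a and Npy1r. Median log2 differences over the 25 were -0.014, 0.19 and 0.0044 in the order of these comparisons, against -0.0075, 0.0028 and -0.0037 over all tested genes. The filter keeps a gene read in the libraries of a single group, so a receptor that passed through its high group had to differ, and these counts are descriptions.

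Receptors whose libraries did not overlap between groups numbered 11 of 25 for Nkx2.1 and SOM (background 19.9%), 3 with higher (5.9%) and 8 with lower values in Nkx2.1 (14%). The number was 5 for Nkx2.1 and VIP (20.1%), 3 with higher (7.31%) and 2 with lower values in Nkx2.1 (12.8%), which is at the background share. It was 9 for SOM and VIP (19.9%), 7 with higher (10.9%) and 2 with lower values in SOM (9%). Each pair of comparisons shares the libraries of 1 group, so the 3 counts are not independent. For Nkx2.1 and VIP the number was 9 without Nkx2.1 replicate 2 and 11 without VIP replicate 1, where the background was 31.0% and 29.4%. Spread between libraries was wide, with a common biological coefficient of variation of 1.40 over all tested genes.

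**Figure D2:**
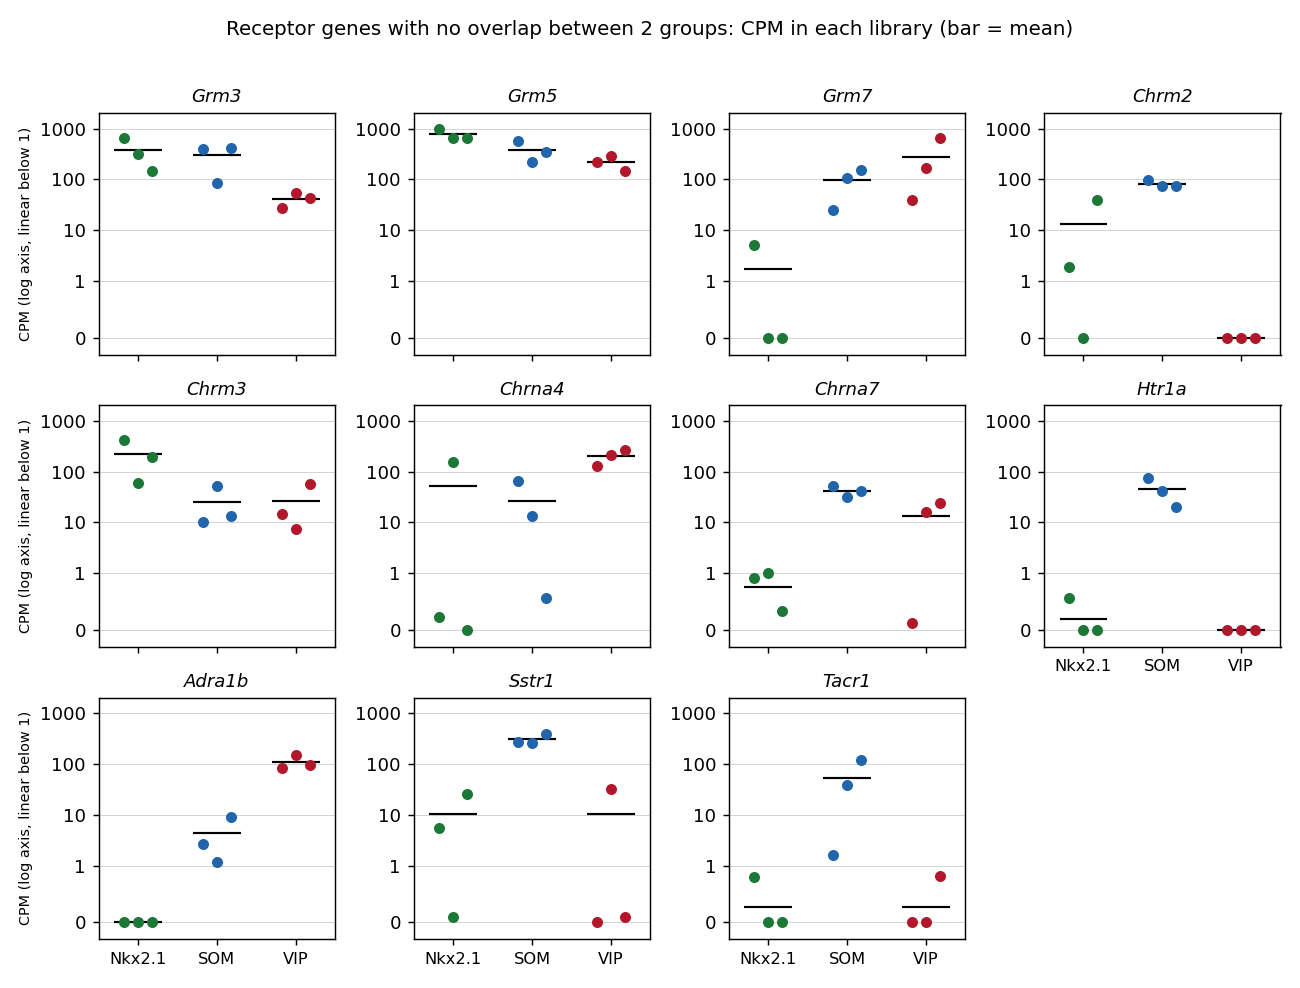
CPM (vertical axis, logarithmic above 1 and linear below) of named receptor genes without overlap between a pair of groups, 1 panel a gene, with a point for each of the 3 libraries of a group and a bar at the group mean. Adra1b points lie at 82.1 to 147 CPM in the VIP libraries and have no read in the Nkx2.1 libraries, and Sstr1 points lie at 261 to 390 CPM in the SOM libraries.

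Metabotropic glutamate receptors made up 24.9% to 54.5% of the summed CPM per kb of exon of all receptor genes in a library. This scale allows for the annotated exon length of a gene and for no other difference in how genes are read, so comparisons between genes are approximate. On it, metabotropic glutamate receptors were the highest family in every library but SOM replicate 2, where somatostatin receptors summed higher. All 6 members with reads were tested. Grm5 belongs to the group that couples to Gq, Grm3 belongs to the group that couples to Gi and is also known from astrocytes, and Grm4, Grm7 and Grm8 belong to the group found mainly at presynaptic terminals. Per kb, the highest means of this family were those of Grm3 in Nkx2.1 (122 ± 84.1 CPM per kb, SD, n = 3) and in SOM (98.0 ± 61.1), followed by Grm5 in Nkx2.1 (74.9 ± 19.4), and these means lay within the spread of one another.

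Grm5 (chr7:87584168-88134907, GRCm38, plus strand) stood at 997, 656 and 649 CPM across the Nkx2.1 replicates, 567, 225 and 348 across the SOM replicates and 217, 295 and 145 across the VIP replicates. Every Nkx2.1 library lay above every SOM and VIP library, and SOM and VIP overlapped. The fitted log2 difference was 1.01 ± 0.45 (SE, adjusted p = 0.438) between Nkx2.1 and SOM and 1.81 ± 0.46 (SE, adjusted p = 0.156) between Nkx2.1 and VIP (edgeR, adjusted over all tested genes, as for each adjusted p below). Without Nkx2.1 replicate 1, the library with the highest astrocyte markers, these values were 0.80 (adjusted p = 0.484) and 1.61 (adjusted p = 0.189), and the part of the astrocyte markers in the difference was not tested.

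Grm3 (chr5:9485541-9725170, minus strand) stood at 652, 312 and 149 CPM across the Nkx2.1 replicates, 394, 84.2 and 418 across the SOM replicates and 28.0, 53.5 and 43.3 across the VIP replicates. The VIP libraries were below all 6 others, while Nkx2.1 and SOM overlapped. The log2 difference was 3.16 ± 0.78 (SE, adjusted p = 0.144) between Nkx2.1 and VIP and 2.84 ± 0.77 (SE, adjusted p = 0.395) between SOM and VIP. Without Nkx2.1 replicate 1 the first was 2.51 (adjusted p = 0.191), and the part of the astrocyte markers was not tested here either.

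Grm7 (chr6:110645581-111567230, plus strand), a presynaptic receptor with low affinity for glutamate, had almost no reads in the Nkx2.1 libraries. It stood at 5.11, 0 and 0 CPM across the Nkx2.1 replicates, 25.5, 107 and 154 across the SOM replicates and 39.1, 165 and 641 across the VIP replicates. Nkx2.1 libraries lay below all others, and within VIP the values spanned 39.1 to 641 CPM. As fitted, the log2 difference was -5.81 ± 2.09 (SE, adjusted p = 0.362) for Nkx2.1 against SOM and -7.38 ± 2.25 (SE, adjusted p = 0.198) for Nkx2.1 against VIP. All 45 Nkx2.1 reads came from replicate 1, and without it the adjusted p was 0.0874 and 0.0555. Grm8, named after its values were seen, had its highest values in VIP replicates 1 and 2, at 114 and 179.9 CPM, against 3.61 in VIP replicate 3, 8.78 to 14.0 in Nkx2.1 and 1.60 to 5.62 in SOM. Grm4 ranged from 0 to 57.3 CPM over the 9 libraries with overlap in every comparison.

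GABA-B receptors work as a pair of Gabbr1, which binds GABA, and Gabbr2, which carries the signal to Gi or Go. Gabbr1 (chr17:37045966-37075067, plus strand) stood at 659, 332 and 159 CPM across the Nkx2.1 replicates, 454, 445 and 185 across the SOM replicates and 463, 358 and 439.5 across the VIP replicates, so every library of every line had it above 150 CPM and the groups overlapped. Gabbr2 stood at 287, 23.8 and 136 CPM across the Nkx2.1 replicates, 68.2, 49.1 and 131 across the SOM replicates and 48.1, 122 and 77.4 across the VIP replicates, also with overlap. On the per-length scale Gabbr1 was at 49.4 ± 32.7, 46.6 ± 19.6 and 54.1 ± 7.13 CPM per kb in the Nkx2.1, SOM and VIP libraries, and Gabbr2 at 22.2 ± 19.7, 12.4 ± 6.41 and 12.3 ± 5.58. The mean of Gabbr1 was above that of Gabbr2 in each line, and the 3 group means of Gabbr1 differed by less than their spread.

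Among the muscarinic receptors, which bind acetylcholine, Chrm3 was highest in Nkx2.1 and Chrm2 in SOM. Chrm3 (chr13:9875486-10360847, minus strand), which couples to Gq, stood at 413, 60.0 and 192 CPM across the Nkx2.1 replicates, 10.4, 53.3 and 13.1 across the SOM replicates and 14.6, 7.44 and 55.9 across the VIP replicates. The Nkx2.1 libraries lay above all others, although the lowest of them was close to the highest VIP library, and without TMM scaling these 2 groups overlapped. The log2 difference was 3.11 ± 1.21 (SE, adjusted p = 0.380) against SOM and 3.09 ± 1.21 (SE, adjusted p = 0.277) against VIP. Without Nkx2.1 replicate 1 both values were 2.30, with adjusted p of 0.469 and 0.410.

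Chrm2 (chr6:36388084-36528414, plus strand), which couples to Gi, stood at 1.93, 0 and 38.8 CPM across the Nkx2.1 replicates, 97.5, 75.2 and 73.6 across the SOM replicates and 0 in each VIP replicate. No read fell on it in the VIP libraries, which allows up to 0.0999 CPM over that group, and the SOM reads, pooled over libraries and scaled by library size, were at least 832-fold higher; the adjusted p was 0.424 with edgeR, and DESeq2 gave no adjusted p. All SOM libraries also lay above all Nkx2.1 libraries, with a log2 difference of -2.60 ± 2.20 (SE, adjusted p = 0.818), and 1 Nkx2.1 library, replicate 3, held most of the Nkx2.1 reads; without it the difference was -6.39 (adjusted p = 0.353). Chrm2 shares exon sequence with 9330158H04Rik on the other strand, which had 208 reads in all, and whether counting used strand is not given in the sources used here. Of the other muscarinic genes, Chrm1 ranged from 0 to 213 CPM with overlap, Chrm4 had 10 reads in all and Chrm5 none.

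Nicotinic receptors are channels built from several subunits, and in the brain most are made of Chrna4 with Chrnb2 or of Chrna7 alone. Of the 16 nicotinic genes 7 had a read and 3 were tested, which were these 3 subunits. Chrna4 (chr2:181018380-181043546, minus strand) stood at 0.227, 157 and 0 CPM across the Nkx2.1 replicates, 64.4, 13.6 and 0.572 across the SOM replicates and 131, 216 and 269 across the VIP replicates. VIP libraries lay above all SOM libraries, while Nkx2.1 replicate 2 lay within the VIP range and the other 2 Nkx2.1 libraries were at or below the floor of 3 reads. The log2 difference between SOM and VIP was -2.97 ± 2.33 (SE, adjusted p = 1.00), and -4.86 without SOM replicate 1. Chrnb2, its usual partner, stood at 1.48, 30.5 and 40.6 CPM across the Nkx2.1 replicates, 56.8, 61.1 and 2.63 across the SOM replicates and 27.4, 54.6 and 47.0 across the VIP replicates with overlap in all comparisons; its exons overlap those of Adar on the opposite strand, which had 19324 reads.

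Chrna7 (chr7:63098692-63212569, minus strand) stood at 0.908, 1.02 and 0.331 CPM across the Nkx2.1 replicates, 52.7, 31.2 and 41.8 across the SOM replicates and 0.123, 16.1 and 24.0 across the VIP replicates. SOM libraries were the highest and did not overlap either other group, and VIP and Nkx2.1 overlapped. The fit gave log2 differences of -5.78 ± 2.09 (SE, adjusted p = 0.362) between Nkx2.1 and SOM and 1.64 ± 1.74 (SE, adjusted p = 1.00) between SOM and VIP, the latter 1.08 without VIP replicate 1. The highest group mean was thus in VIP for Chrna4 and in SOM for Chrna7, a difference in pattern that was not tested. The muscle subunits Chrna1, Chrnd and Chrng had no read, and Chrna2, Chrnb1, Chrna6 and Chrne, with 21, 1, 208 and 6 reads, did not pass the filter.

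Among 14 serotonin receptor genes, 10 had a read and only Htr1a passed the filter. Htr1a (chr13:105443639-105448122, plus strand), a Gi-coupled receptor known for silencing neurons through potassium channels, stood at 0.568, 0 and 0 CPM across the Nkx2.1 replicates, 73.9, 41.7 and 19.8 across the SOM replicates and 0 in each VIP replicate. Every SOM library was above every other library. Pooled and scaled in the same way, the SOM reads were at least 462-fold higher than in VIP, with an adjusted p of 0.426, and its log2 difference from Nkx2.1, which had 5 reads, was -7.84 ± 2.76 (SE, adjusted p = 0.364). All 5 came from replicate 1, and without it the adjusted p was 0.253. Htr2b, named after its values were seen, had 687 reads in the SOM libraries, 11 in Nkx2.1 and 0 in VIP, but its exons overlap Psmd1 on the other strand, which had 27578 reads. Htr1d, Htr2a, Htr2c, Htr4, Htr5a and Htr5b had 7 to 88 reads each over all libraries and did not pass the filter.

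Adrenergic receptors bind noradrenaline, and Adra1a and Adra1b both couple to Gq. Adra1b (chr11:43774606-43901210, minus strand) had the lowest adjusted p of all 25 receptor genes in both comparisons with Nkx2.1. It stood at 0 in each Nkx2.1 replicate, 2.65, 1.18 and 9.03 CPM across the SOM replicates and 82.1, 147 and 94.5 across the VIP replicates. VIP libraries were the highest, SOM libraries lay between and Nkx2.1 libraries had no read, and no groups overlapped. No read in Nkx2.1 allows up to 0.0917 CPM over the group, and the pooled and scaled reads were at least 1177-fold higher in VIP and at least 49.0-fold higher in SOM. The adjusted p was 0.0826 between Nkx2.1 and VIP, 0.287 between Nkx2.1 and SOM and 0.520 between SOM and VIP. For Nkx2.1 and VIP, DESeq2 gave an adjusted p of 5.13e-12, and over all alternatives of that comparison the range was 5.13e-12 to 0.269, with 0.0682 to 0.242 when single libraries were left out.

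Adra1a stood at 132, 8.38 and 33.5 CPM across the Nkx2.1 replicates, 18.4, 130.1 and 27.0 across the SOM replicates and 49.4, 21.2 and 0.820 across the VIP replicates and overlapped in every comparison. Adrb1, a beta receptor, ranged from 0 to 15.6 CPM. Adra2a had 433 reads in the VIP libraries, 419 of them in replicate 3, 1 in SOM and none in Nkx2.1 and did not pass the filter, Adra2c had 2 reads in all, and Adra1d, Adra2b and Adrb3 had no read. Dopamine receptors had few reads, and none of them passed the filter. Drd1a, the D1 receptor and the highest of its family, stood at 0.795, 0 and 0 CPM across the Nkx2.1 replicates, 0, 53.1 and 11.1 across the SOM replicates and 0, 0.103 and 0.0820 across the VIP replicates, with 456 of its 465 reads in SOM replicates 2 and 3. Drd2 had 17 reads and Drd4 41, and Drd3 and Drd5 none.

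Adra1b, Chrm2 and Htr1a are the tested receptors that had no read in the libraries of a whole group, so the stretch of DNA before their start is shown for each. The letters come from RefSeq's promoter table (GRCm38.p6), which holds 60 of the 79 genes. Each window is 190 bases long, is printed 5′ to 3′ on the strand of the gene, and ends before the first annotated transcript start; for Htr1a this leaves out the 54 bases next to the RefSeq start. Capitals mark matches to the motifs searched on both strands, none of which overlap each other.
Adra1b (chr11:43901238-43901427, minus strand): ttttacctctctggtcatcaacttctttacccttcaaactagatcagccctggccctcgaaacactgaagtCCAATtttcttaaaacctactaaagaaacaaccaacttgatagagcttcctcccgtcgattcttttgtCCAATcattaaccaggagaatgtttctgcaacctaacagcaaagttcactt
Chrm2 (chr6:36387894-36388083, plus strand): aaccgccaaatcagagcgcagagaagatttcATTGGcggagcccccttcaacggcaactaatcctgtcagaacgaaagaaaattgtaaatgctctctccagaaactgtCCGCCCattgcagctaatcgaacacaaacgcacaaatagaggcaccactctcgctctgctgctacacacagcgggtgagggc
Htr1a (chr13:105443449-105443638, plus strand): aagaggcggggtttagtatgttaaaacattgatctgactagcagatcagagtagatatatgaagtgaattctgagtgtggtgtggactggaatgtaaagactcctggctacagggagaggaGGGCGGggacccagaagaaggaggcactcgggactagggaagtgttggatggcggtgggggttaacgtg
The motifs were the TATA box TATAAA, the GC box GGGCGG, the CCAAT box CCAAT, the cyclic AMP response core TGACGT, the homeodomain core TAATTA and the E-box CAGCTG. None of the 3 windows held the TATA box, the cyclic AMP response core, the homeodomain core or the E-box, which occurred in 9.44%, 5.71%, 3.56% and 10.4% of 32851 promoter windows of the same length. Adra1b held 2 CCAAT boxes, Chrm2 a CCAAT box (read as ATTGG) and a GC box (read as CCGCCC), and Htr1a a GC box. Windows with a CCAAT box made up 28.4% of all and those with a GC box 30.7%. GC content was 40.5% for Adra1b, 51.1% for Chrm2 and 50.5% for Htr1a, against a median of 53.2%. A match is a description of letters and not a site shown to be bound.

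Somatostatin receptors couple to Gi and answer to the peptide that SOM interneurons release. Sstr1 (chr12:58211772-58214444, plus strand) stood at 5.45, 0.0846 and 25.5 CPM across the Nkx2.1 replicates, 269, 261 and 390.0 across the SOM replicates and 0, 31.3 and 0.0820 across the VIP replicates. All SOM libraries lay above all others by a wide margin, and Nkx2.1 and VIP overlapped. edgeR fitted a log2 difference of -4.89 ± 2.35 (SE, adjusted p = 0.477) for Nkx2.1 against SOM and 4.87 ± 2.35 (SE, adjusted p = 0.787) for SOM against VIP. All VIP reads but 1 came from VIP replicate 2, and without it the latter was 12.36 (adjusted p = 0.313). On the per-length scale Sstr1 reached 149.9 ± 35.3 CPM per kb in SOM, above the 98.0 ± 61.1 of Grm3 in the same libraries, with overlapping SD. DESeq2 gave no adjusted p for Sstr1 in these comparisons.

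The other somatostatin receptors did not share that pattern. Sstr4 stood at 0.227, 0.0846 and 27.2 CPM across the Nkx2.1 replicates, 0, 9.62 and 0.114 across the SOM replicates and 0.123, 23.7 and 0.164 across the VIP replicates, and its 3 libraries well above the floor came from 3 different lines. Sstr2 was read in SOM replicate 2 at 16.7 CPM and VIP replicate 2 at 12.1 CPM and in no other library, and Sstr3 and Sstr5 had no read. Of the receptors for VIP, Vipr2 stood at 23.3 CPM in Nkx2.1 replicate 2, 0.166 in Nkx2.1 replicate 3 and 5.98 in VIP replicate 3, and Vipr1 at 2.82 CPM in VIP replicate 1, with no read of either elsewhere. Neither passed the filter, so no difference between the lines was tested for them.

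Receptors for neuropeptide Y couple to Gi. Npy2r stood at 0.454, 31.2 and 0 CPM across the Nkx2.1 replicates, 0, 38.0 and 34.2 across the SOM replicates and 9.32, 129 and 202 across the VIP replicates, with the highest values in VIP replicates 2 and 3 and overlap in each comparison. Npy1r, named after its values were seen, was at 73.1 and 187 CPM in the same 2 VIP libraries, with no read in VIP replicate 1. It was also read in Nkx2.1 replicate 1, with 116 reads or 13.2 CPM. Its ratio of mean CPM between VIP and Nkx2.1 was 19.8, with an edgeR adjusted p of 0.584. The ratio of pooled reads between VIP and SOM was 2485 (95% exact counting interval 446 to 98177), since SOM had 1 read; this interval covers counting error only, and the edgeR adjusted p was 0.570. Without VIP replicate 1, Npy1r and Npy2r joined the receptors whose VIP libraries did not overlap either other line.

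Tacr1 (chr6:82402334-82560104, plus strand), the receptor for substance P, stood at 0.795, 0 and 0 CPM across the Nkx2.1 replicates, 1.59, 37.7 and 122 across the SOM replicates and 0, 0 and 0.820 across the VIP replicates. SOM libraries were the highest, but SOM replicate 1 was close to the levels elsewhere. Tacr3 had 6 reads in all and did not pass the filter. The log2 difference was -7.62 ± 3.15 (SE, adjusted p = 0.406) for Nkx2.1 against SOM and 7.52 ± 3.13 (SE, adjusted p = 0.647) for SOM against VIP. All 7 Nkx2.1 reads came from replicate 1 and all 10 VIP reads from replicate 3, and without these libraries, left out 1 at a time, the adjusted p was 0.293 and 0.755 in that order. Opioid and nociceptin receptors also couple to Gi. Oprl1, the nociceptin receptor, stood at 1.25, 283 and 58.2 CPM across the Nkx2.1 replicates, 102, 28.3 and 94.4 across the SOM replicates and 50.5, 0 and 0 across the VIP replicates with overlap, and Oprm1, the mu receptor, ranged from 0 to 133 CPM with overlap. Oprd1 had 78 reads and Oprk1 none. Crhr1, the receptor for corticotropin releasing hormone, was at 11.7 CPM in SOM replicate 2 and at or below 0.341 CPM in all other libraries.

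**Figure D3:**
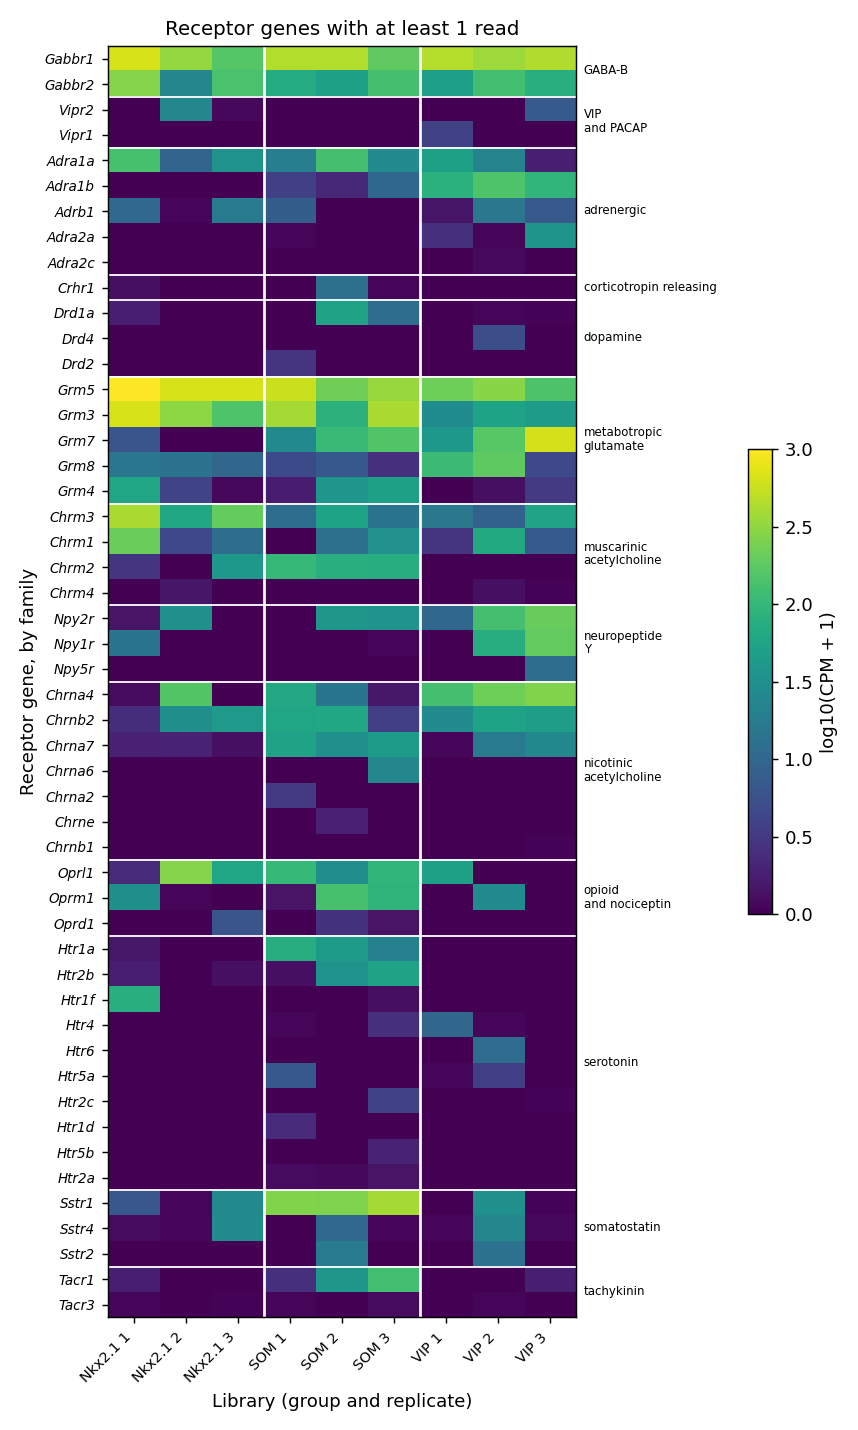
Heatmap of log10(CPM + 1) in colour for receptor genes with reads (rows, by family) in the 9 libraries (columns, by line). Rows of Gabbr1, Grm5 and Grm3 are filled in all 9 columns, while many rows hold a value in a single column.

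Summed by family on the per-length scale, somatostatin receptors had their highest levels in SOM, at 155 ± 31.6 CPM per kb against 11.5 ± 17.4 in Nkx2.1 and 12.6 ± 21.6 in VIP, and nearly all of it was Sstr1. Nicotinic genes summed to 49.0 ± 17.95 in VIP, 22.4 ± 8.21 in SOM and 13.5 ± 18.9 in Nkx2.1. Adrenergic genes summed to 39.2 ± 10.1 in VIP, 8.64 ± 5.75 in SOM and 9.13 ± 8.51 in Nkx2.1. GABA-B genes were the most even, with 71.6 ± 48.7, 58.9 ± 13.5 and 66.5 ± 1.95 in Nkx2.1, SOM and VIP. Opioid and nociceptin receptors summed to 32.1 ± 38.0, 29.4 ± 6.23 and 5.60 ± 7.01 in the same order, with an SD in Nkx2.1 above its mean. These sums follow their 1 or 2 highest genes and were not tested.

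**Figure D4:**
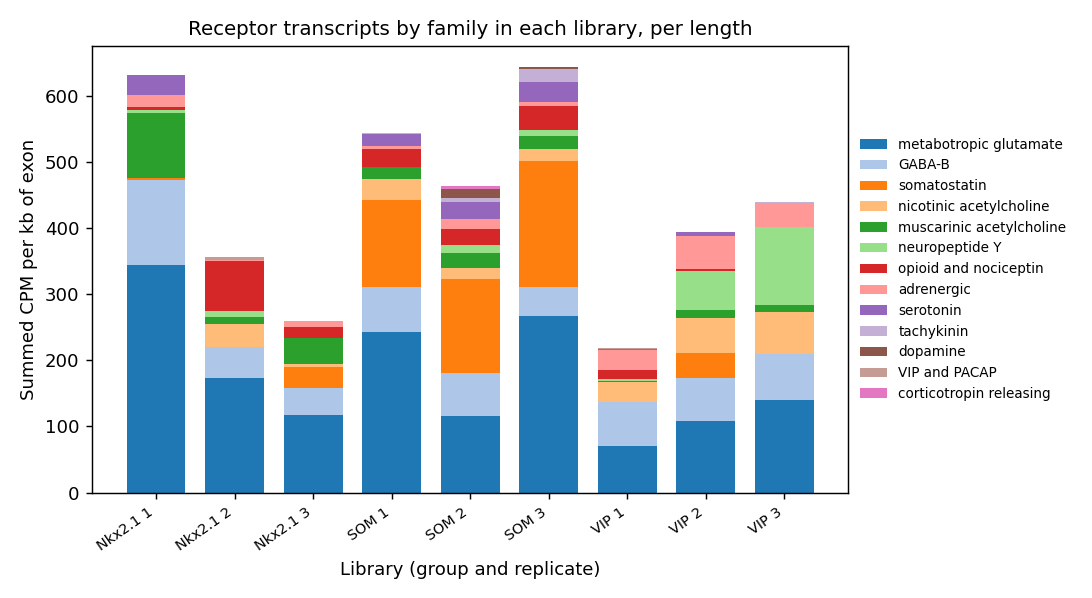
Summed CPM per kb of exon (vertical axis) of the 13 receptor families in each library (horizontal axis), stacked. Somatostatin receptors fill a large part of the SOM columns (155 CPM per kb on average), and metabotropic glutamate receptors take 24.9% to 54.5% of every column.

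Genes that act with these receptors were read from 6 lists, and edgeR called none of their tested members in any comparison. The lists were 8 tested of 10 G protein alpha subunits, 10 of 12 adenylyl cyclases and phospholipase C beta isoforms, 19 of 21 receptor kinases, arrestins and RGS proteins, 6 of 8 potassium channel and GABA-B auxiliary subunits, 11 of 11 scaffolds and nicotinic chaperones and 8 of 14 ligand precursors. Among all tested genes DESeq2 called 7.16%, 11.8% and 3.56% for Nkx2.1 and SOM, Nkx2.1 and VIP, and SOM and VIP, and edgeR had 11.3%, 15.2% and 6.99% at an unadjusted p under 0.05. For the ligand precursors, DESeq2 called 5 of 8 between Nkx2.1 and SOM, 6 between Nkx2.1 and VIP and 6 between SOM and VIP, where edgeR had 6 in each at the unadjusted p. These counts include the driver genes Sst and Vip, which mark the lines and are no finding: Sst was among those called by DESeq2 in every comparison and Vip in both comparisons with the VIP libraries. For the scaffolds and chaperones both rules took 4, 4 and 1 of 11. For the kinases, arrestins and RGS proteins DESeq2 called 1, 2 and 3 of 19, and edgeR had 2, 2 and 3 at the unadjusted p. For the G protein alpha subunits these counts were 0, 1 and 0 of 8 by DESeq2 and 1, 2 and 0 by edgeR. The cyclases and phospholipases gave 0, 1 and 1 of 10 by both rules, and the potassium channel and GABA-B auxiliary subunits 0, 1 and 0 of 6 by DESeq2 and 1, 1 and 0 by edgeR. The lists' median log2 differences ran from -2.09 to 1.83 between Nkx2.1 and SOM, from -2.26 to 4.53 between Nkx2.1 and VIP and from -3.96 to 1.56 between SOM and VIP, against the medians near 0 of all tested genes given above.

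Levels of 4 of these genes, chosen after their values were seen, are given with the receptors they serve. Sst, the ligand of Sstr1, stood at 36.1, 0 and 16.6 CPM across the Nkx2.1 replicates, 1594, 2163 and 1445 across the SOM replicates and 0.123, 0 and 0 across the VIP replicates. This is the driver gene of the SOM line, so its level there describes the label and is no finding. Adcy1, a calcium-stimulated adenylyl cyclase, stood at 815, 716 and 396 CPM across the Nkx2.1 replicates, 646, 550.4 and 874 across the SOM replicates and 5.52, 88.9 and 34.7 across the VIP replicates, so that each VIP library lay below each of the other 6, with an adjusted p of 0.120 between Nkx2.1 and VIP and 0.228 between SOM and VIP. Lypd6, a modulator of nicotinic receptors, stood at 5.68, 0 and 0 CPM across the Nkx2.1 replicates, 481, 352 and 255 across the SOM replicates and 0, 0.413 and 1.23 across the VIP replicates, with SOM libraries above all others. Kctd12, an auxiliary subunit of GABA-B receptors, stood at 572, 990.0 and 595 CPM across the Nkx2.1 replicates, 294, 256 and 470.0 across the SOM replicates and 119, 177 and 326 across the VIP replicates, with Nkx2.1 libraries the highest and an adjusted p of 0.437 against SOM and 0.168 against VIP.

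A count of 0 in all 9 libraries does not separate a silent gene from one that was not counted. Of the 28 receptor genes without a read, 7 lie in stretches of over 100 neighbouring protein-coding genes of 1 strand that all had no read. Chrna3, Chrnb4, Grm2, Htr1b, Htr3a and Htr3b lie in such a run of 484 genes on the minus strand of chromosome 9 (positions 21294275 to 124476898), and Htr7 in a run of 132 genes on the minus strand of chromosome 19 (27388698 to 60581025). Such runs may be gaps in the counting, which was not tested, so no level is given for these 7, among them Htr3a, a usual marker of interneurons from the caudal ganglionic eminence. The other 21 lie in runs of 1 to 7 unread genes. Among these are Adra1d, Adra2b, Adrb3, Chrm5, Chrna1, Chrna5, Chrna9, Chrna10, Chrnb3, Chrnd, Chrng, Crhr2, Drd3, Drd5, Grm6, Npy6r, Oprk1, Sstr3, Sstr5 and Tacr2, and for them 0 reads allow up to 0.246 to 0.444 CPM in a library, a limit for counting error only.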

How the data were processed

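Each library has a deposited table of counts, whole numbers of reads that were not normalized, by gene symbol. Per the submitters' processing notes, mm10 was among the builds and TopHat2 2.0.9 and DESeq2 among the tools; what counted the reads, and whether by strand, is not given in the sources used here. Each table ends with 5 summary entries that name no gene, which held 83.6% to 85.2% of its total and entered neither library sizes nor tests. Receptor genes were the 79 symbols that match the family names, all found in the GENCODE M21 annotation (GRCm38), from which exon lengths and positions were taken.

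The test was edgeR 4.0.16's quasi-likelihood F test in R 4.3.3 with TMM normalization, in a single fit over all 9 libraries with group as the sole term, after filterByExpr by group (minimum count 10). Benjamini-Hochberg adjustment was over the 10728 genes tested, with a threshold of 0.05 and 6 residual degrees of freedom. The fit was also run on simulated counts whose means and library sizes came from these data, and the outcome is not reported here. The SE of a log2 difference was computed back from the F statistic. Alternatives were size factors of the DESeq2 kind, no filter on low counts, DESeq2 1.42.0, the replicate number as a block, detection at 1 read, and each library left out in turn. No overlap of groups was added as a description after the data were seen, with its own alternatives.

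Genes named with values in every library were to be those past the threshold (none), those without overlap between 2 groups and a mean of at least 20 CPM in the higher one, the highest of each family, and the receptors for somatostatin and VIP. Some receptor genes enter the counts and sums but are not reported by name here. Others are said to be chosen after their values were seen, or are given as ranges and counts. The receptor genes, the 6 lists of genes that act with them and the marker lists were chosen with earlier results of these data known. Folds against a group without a read are lower bounds set by 3 reads over that group, and counting intervals are 95% exact binomial ones. Reads here carry no molecular identifiers and so do not stand for independent molecules: bounds and intervals cover counting error only.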

Additional observations from a re-analysis of the deposited data

How the results depend on the processing

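No receptor gene passed the adjusted threshold in any edgeR fit, with 0 called in each comparison under size factors of the DESeq2 kind, without the filter on low counts, with the replicate block and with each library left out. DESeq2 called 6, 6 and 5 receptor genes for the pairs Nkx2.1 and SOM, Nkx2.1 and VIP, and SOM and VIP. Over all genes, where edgeR called 10, 33 and 8 in that order, DESeq2 called 768, 1262 and 382, and edgeR called 21 without the filter for SOM against VIP. With single libraries left out, all genes called numbered 0 to 37, 12 to 48 and 3 to 17. Receptor genes without overlap between groups then numbered 11 to 14, 6 to 11 and 10 to 13 of 25, against 25.5% to 36.8%, 26.3% to 33.8% and 27.4% to 31.5% of all tested genes. Detection at 1 read raised the mean number of receptor genes to 31.7 in SOM, 27.0 in VIP and 23.7 in Nkx2.1 libraries.

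Libraries of different lines share replicate numbers. Deviations of same-numbered libraries correlated between -0.0326 and 0.0643, and those of different-numbered libraries between -0.0653 and 0.0329. For SOM and VIP the same-numbered values were 0.0643, 0.0418 and 0.0079, of which 0.0643 and 0.0418 lay above every different-numbered value. In pairs with Nkx2.1 they ran from -0.0326 to -0.0043. The main fit did not take the numbers as pairing the libraries, and whether they do was not tested. With the replicate block, edgeR called 4, 11 and 4 of all genes. Of 295 alternative values with an adjusted p for the 23 named log2 differences, 282 stayed on the same side of the threshold with the same sign, 13 passed it (all with DESeq2) and 0 reversed; DESeq2 gave no adjusted p for the other 4. The cause of the gap between edgeR and DESeq2 was not tested. The 26 receptor genes with reads that did not pass the filter have no test.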
